A study of Mus musculus with 12 samples.

Results

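The genes described here are Trp53, which encodes the transcription factor p53 in the mouse, and 9 of its canonical target genes: Cdkn1a, Mdm2, Ccng1, Zmat3, Trp53cor1, Phlda3, Aen, Plk3 and Rrm2b. They were chosen by symbol, with earlier results of these data known. Matched to the Ensembl identifiers of the deposited count files, all 10 were found among 37583 gene identifiers. All 10 had enough reads to be tested among 11819 genes.

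RNA was sequenced from 12 single-cell-derived clones of granulocyte-monocyte progenitors, the precursors of neutrophils and monocytes, here taken from fetal liver of C57BL/6 mice at embryonic day 15.5. The wildtype group holds 6 clones (1A to 1C and 2D to 2F), and 6 clones lack Tafazzin (Taz; 3G to 3I and 4J to 4L). Tafazzin is an enzyme of the mitochondria that remodels the phospholipid cardiolipin. Clones of both genotypes carry ER-Hoxb8, a fusion of the transcription factor Hoxb8 with the estrogen receptor's hormone-binding domain, which blocks maturation while estradiol is present. Both were grown with stem cell factor at about 50 ng/ml and 0.5 µM estradiol, and total RNA came from equal numbers of cells. No agent that damages DNA is named for either genotype. The labels do not say what the digit of a clone's name, called its title number here, stands for. Should it stand for an embryo or a founding culture, the 3 clones of a number would count as related, and p-values over 12 clones would be too small. How the knockout was made is not given in the sources used here, and each clone gave 1 library.

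p53 is a transcription factor that is held at a low level because Mdm2, itself a product of p53 activity, marks it for destruction. Damage to DNA and other stresses stop that destruction, so p53 accumulates mainly as protein, often with little change in its own mRNA. It then binds response elements near its target genes, whose products halt the cell cycle, repair DNA, adjust metabolism or lead to cell death. Blood progenitors are known to be sensitive to it.

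A p53 response element consists of a pair of 10-base units, called decamers here. The decamer consensus was searched in the RefSeq promoter windows (GRCm38.p6) of the members, each running from 250 bases before to 50 bases after a transcription start. The pattern reads the same on both strands, so 1 search covers both, and decamers may overlap each other. Windows were present for 7 of the 10 genes, and 5 of the 7 held at least 1 decamer. The stretches below are shown because they are the places in these windows where the pattern lies. They are written 5′ to 3′ on the strand of the gene, with the decamer in capitals.
Trp53, chr11:69580259-69580318, plus strand: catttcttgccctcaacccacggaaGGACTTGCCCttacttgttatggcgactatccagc
Cdkn1a, chr17:29090881-29090962, plus strand: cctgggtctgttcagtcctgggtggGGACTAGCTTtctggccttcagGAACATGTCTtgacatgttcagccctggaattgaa
Mdm2, chr10:117710910-117710969, minus strand: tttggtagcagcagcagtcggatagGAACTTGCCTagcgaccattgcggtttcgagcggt
Ccng1, chr11:40755437-40755496, minus strand: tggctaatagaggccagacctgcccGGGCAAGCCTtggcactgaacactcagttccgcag
Aen, chr7:78895927-78895956, plus strand: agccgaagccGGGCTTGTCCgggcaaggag

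The decamer began 75 bases before the start of Trp53, 186 bases before that of Mdm2 and 185 bases before that of Ccng1. For Cdkn1a, windows of an upstream and a downstream annotated start were present. The upstream window held a pair, beginning 73 and 51 bases before the upstream start and separated by 12 bases. Aen has a pair of annotated starts, and its decamer began 121 bases before the downstream start and 11 bases into the transcript from the upstream one. At least 1 decamer was found in 9.55% of 27025 genes with a window and in 8.0% of the 8895 such genes tested for expression. A pair separated by up to 13 bases was found in 0.07% of the genes with a window. No decamer was found in the windows of Phlda3 and Plk3 or in that of the downstream start of Cdkn1a. Zmat3, Trp53cor1 and Rrm2b had no window. A match to the pattern is a description of the letters and does not show that p53 binds there.

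Wildtype libraries held 21966954 to 27431544 counts in genes, and knockout libraries 18970252 to 23658158. Levels are given as CPM, the usual counts-per-million scale set to library size, here with TMM factors. A gene with no read could still hold up to 3 counts, which is 0.109 to 0.158 CPM depending on the library, a limit that leaves out PCR duplication. Taz itself lay between 37.1 and 43.9 CPM in wildtype and between 2.21 and 4.08 CPM in knockout, where 44 to 87 reads remained. The labelled cell type was checked against 10 genes of granulocyte-monocyte progenitors. All 10 were tested. None was called by edgeR or DESeq2 and 0 had an unadjusted p under 0.05 in edgeR's test. Their summed plain CPM ran from 12790 to 21690 in wildtype and from 11710 to 19610 in knockout. Genes of mature neutrophils summed to 1510 CPM in 2D, against a wildtype median of 68.8 and a knockout range of 15.9 to 145. Of 7 tested neutrophil genes 1 was lower in knockout, and none of the 10 on the list was at 0 in every clone. Lymphoid genes summed to between 9.97 and 63.9 CPM in wildtype and between 2.81 and 5.92 CPM in knockout. Of 5 tested lymphoid genes 2 were lower, and Cd3e was at 0 in all 12 clones. Genes of mast cells and basophils summed to between 1524 and 4671 CPM in wildtype and between 2719 and 5495 CPM in knockout. Erythroid genes ran from 500 to 862 and from 762 to 1070 CPM, and stromal and endothelial genes from 219 to 635 and from 370 to 595 CPM. No tested gene of these further lists was called by edgeR. The part of these cells in the results below was not tested, other than by leaving out 2D. In bulk RNA, fewer cells of a type and less RNA per cell cannot be told apart.

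Of the 10 genes, 9 were higher in the Taz knockout clones and none was lower (edgeR's quasi-likelihood test, adjusted p under 0.05). None was lower by DESeq2 or voom either, and the 9 genes that rose are the 9 with an unadjusted p under 0.05. The gene that was not called was Trp53. Over all 11819 genes tested, 3.99% were called higher and 3.94% lower. The 10 genes were not chosen blind to these data, which limits the comparison of these shares. The median log2 fold change was 0.51 over the 10 genes and -0.01 over all tested genes. In 6 of the 10 genes every knockout clone lay above every wildtype clone, which held for 2.54% of all tested genes. These were Cdkn1a, Mdm2, Ccng1, Zmat3, Trp53cor1 and Phlda3. With counts summed by title number, which leaves 4 samples, Cdkn1a, Ccng1, Zmat3 and Trp53cor1 kept their calls and the other 5 did not pass (adjusted p from 0.0509 for Aen to 0.109 for Plk3). The sizes ran from a 1.12-fold rise of Mdm2 to a 3.98-fold rise of Zmat3.

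**Figure D1:**
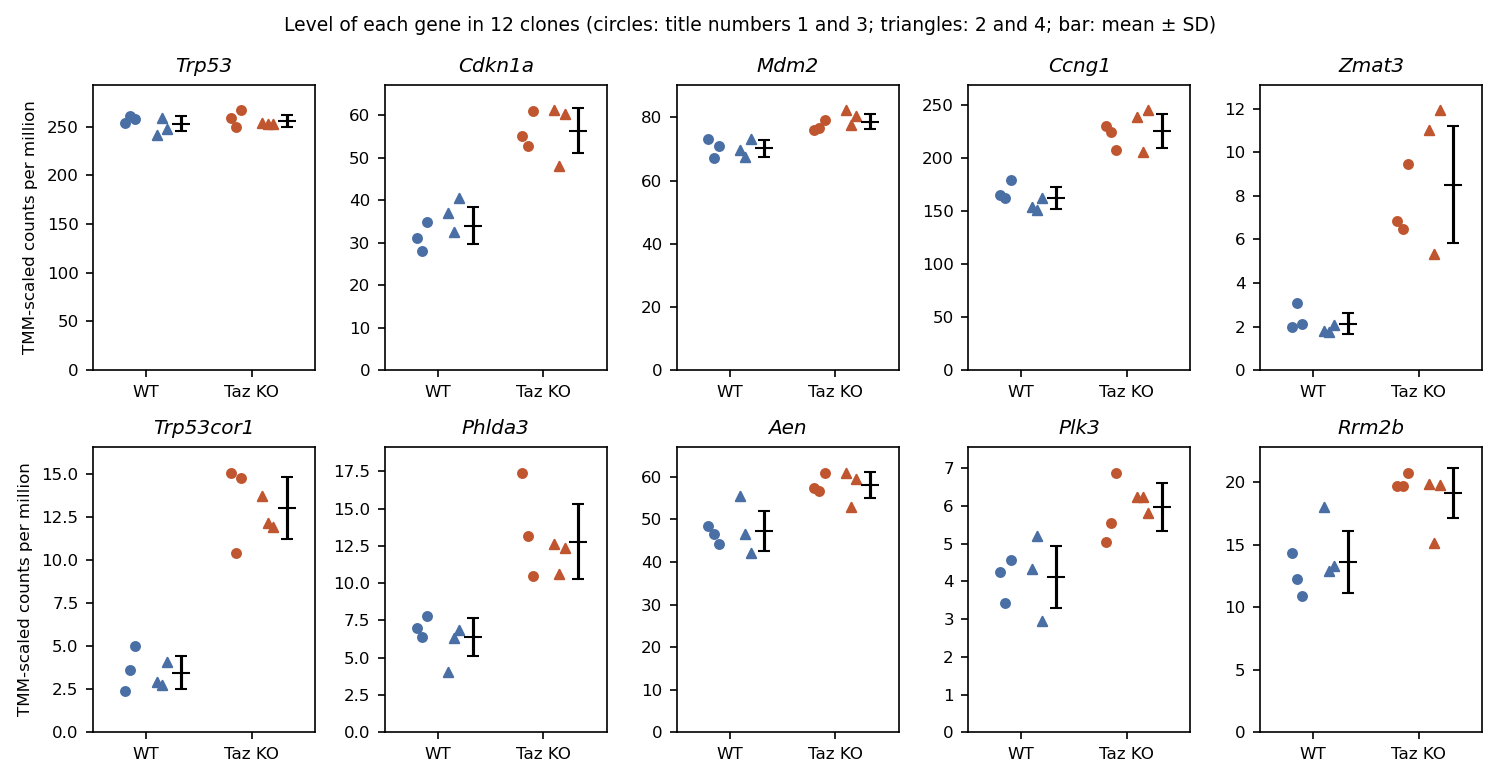
Level of the 10 genes in TMM-scaled CPM (vertical axes, each from 0) in the 6 wildtype (blue) and 6 Taz knockout (orange) clones; circles are title numbers 1 and 3, triangles 2 and 4, and bars give the mean ± SD of a genotype. Trp53 lay at the same height in both genotypes, while the points of Cdkn1a, Mdm2, Ccng1, Zmat3, Trp53cor1 and Phlda3 did not overlap.

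Trp53 (ENSMUSG00000059552, chromosome 11) had a lowest, median and highest level of 242, 256 and 261 CPM in wildtype. In knockout these were 250.1, 253 and 267 CPM. The genotypes overlapped almost entirely, and 1 of the 6 knockout clones (3I) lay above all wildtype clones. The means were 253 ± 7.48 and 256 ± 6.01 CPM (SD, n = 6 each). The log2 fold change was 0.02 (SE 0.03, 95% interval -0.04 to 0.07, adjusted p = 0.789). Trp53 varied least of the 10 genes within a genotype, with coefficients of variation of 2.95% in wildtype and 2.35% in knockout. The difference in Trp53 mRNA was thus small against those of its targets, although mRNA says nothing about the amount or the modification of the protein.

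Mdm2 and Ccng1 act back on p53. Mdm2 is the ubiquitin ligase that marks p53 for destruction, and Ccng1 encodes cyclin G1, which brings a phosphatase to Mdm2. Mdm2 (ENSMUSG00000020184, chromosome 10) had a lowest, median and highest level of 67.0, 70.3 and 73.3 CPM in wildtype. In knockout the levels were 75.9, 78.3 and 82.2 CPM. The lowest knockout clone (3G) lay just above the highest wildtype clone (1A). The means of 70.2 ± 2.66 and 78.6 ± 2.40 CPM (SD, n = 6 each) differed by a log2 fold change of 0.16 (SE 0.03, 95% interval 0.09 to 0.23, adjusted p = 0.0127). The rise was small and stood out because the clones of a genotype lay close together, with coefficients of variation of 3.79% and 3.05%. Testing without a filter on low counts ended the call of Mdm2 (adjusted p = 0.0503).

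Ccng1 (ENSMUSG00000020326, chromosome 11) ranged from 151 to 180 CPM in wildtype, with a median of 162 CPM. In knockout it ranged from 206 to 245 CPM, with a median of 227 CPM. All 6 knockout clones were above all wildtype clones, and the gap between 1C and 4K was wider than the wildtype SD. The means were 162 ± 10.1 and 225 ± 16.2 CPM (SD, n = 6 each), a 1.39-fold rise (log2 fold change 0.47, SE 0.05, 95% interval 0.35 to 0.59, adjusted p = 0.00053). With 3543 to 5624 reads in each clone, counting error was small for this gene.

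Cdkn1a, Trp53cor1 and Plk3 are linked to arrest of the cell cycle and to stress signalling. Cdkn1a encodes p21, the inhibitor of cyclin-dependent kinases through which p53 arrests the cycle. Cdkn1a (ENSMUSG00000023067, chromosome 17) had a lowest, median and highest level of 28.1, 33.7 and 40.5 CPM in wildtype. In knockout these were 48.1, 57.6 and 61.1 CPM. The genotypes did not overlap, with 2F as the highest wildtype clone and 4K as the lowest knockout clone. The means were 34.0 ± 4.42 and 56.3 ± 5.34 CPM (SD, n = 6 each), a 1.66-fold rise (log2 fold change 0.73, SE 0.09, 95% interval 0.53 to 0.93, adjusted p = 0.000972).

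Trp53cor1, also known as lincRNA-p21, is a long noncoding RNA transcribed from the strand opposite to Cdkn1a. In GENCODE release M21 it lies 11.8 kb from that gene. Trp53cor1 (ENSMUSG00000085912, chromosome 17) had a lowest, median and highest level of 2.41, 3.27 and 5.02 CPM in wildtype. In knockout these were 10.4, 12.9 and 15.1 CPM. Every knockout clone was above all wildtype clones, and the lowest of them (3H) was more than 5 CPM above the highest wildtype clone (1C). The means were 3.48 ± 0.971 and 13.03 ± 1.82 CPM (SD, n = 6 each), a 3.75-fold rise (log2 fold change 1.91, SE 0.18, 95% interval 1.51 to 2.30, adjusted p = 0.000336). By p-value Trp53cor1 ranked 7 among all 11819 tested genes. The reads behind these levels numbered 63 to 110 in wildtype clones and 205 to 348 in knockout clones.

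Plk3 encodes a kinase of the polo-like family that responds to stress. Plk3 (ENSMUSG00000028680, chromosome 4) ranged from 2.95 to 5.21 CPM in wildtype, with a median of 4.29 CPM. In knockout it ranged from 5.05 to 6.88 CPM, with a median of 6.03 CPM. The genotypes overlapped, since the wildtype clone 2E lay above the knockout clone 3G, and 5 of the 6 knockout clones were above all wildtype clones. The means were 4.12 ± 0.813 and 5.96 ± 0.636 CPM (SD, n = 6 each), with a log2 fold change of 0.53 (SE 0.14, 95% interval 0.22 to 0.84, adjusted p = 0.0411). Leaving out single clones ended the call in 10 of 12 cases (adjusted p from 0.0245 to 0.0914 over all 12). The call remained without 2E and without 3G (adjusted p = 0.0245 and 0.04935). It was also lost without a filter on low counts (adjusted p = 0.0984).

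Zmat3, Phlda3 and Aen act on RNA, on survival signalling and on DNA in dying cells. Zmat3 encodes a zinc finger protein that binds RNA and controls splicing and RNA stability. Zmat3 (ENSMUSG00000027663, chromosome 3) had a lowest, median and highest level of 1.74, 2.03 and 3.09 CPM in wildtype. In knockout these were 5.34, 8.16 and 11.9 CPM. No knockout clone reached down to the wildtype range, but the knockout clones were widely spread, with 3I, 4J and 4L above 9 CPM and 3G, 3H and 4K below 7 CPM. The means were 2.14 ± 0.490 and 8.51 ± 2.67 CPM (SD, n = 6 each), a 3.98-fold rise (log2 fold change 1.99, SE 0.23, 95% interval 1.497 to 2.48, adjusted p = 0.00053). Its coefficient of variation in knockout, 31.4%, was the highest of the 10 genes. Counts were low, at 42 to 85 reads in wildtype clones and 114 to 259 in knockout clones.

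Phlda3 encodes a pleckstrin homology domain protein that holds back the survival kinase Akt. Phlda3 (ENSMUSG00000041801, chromosome 1) had a lowest, median and highest level of 4.07, 6.64 and 7.80 CPM in wildtype. In knockout these were 10.5, 12.5 and 17.4 CPM. The genotypes did not overlap, with 3G the highest knockout clone and 2D the lowest wildtype clone. The means were 6.41 ± 1.26 and 12.8 ± 2.52 CPM (SD, n = 6 each), a 1.99-fold rise (log2 fold change 0.99, SE 0.16, 95% interval 0.64 to 1.35, adjusted p = 0.00473).

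Aen encodes a nuclease that helps to break down DNA during apoptosis. Aen (ENSMUSG00000030609, chromosome 7) ranged from 42.0 to 55.6 CPM in wildtype, with a median of 46.6 CPM. In knockout it ranged from 52.9 to 60.9 CPM, with a median of 58.5 CPM. The overlap came from the wildtype clone 2D, which lay above the knockout clone 4K. The other 5 knockout clones were above all wildtype clones. The means were 47.2 ± 4.65 and 58.1 ± 3.04 CPM (SD, n = 6 each), with a log2 fold change of 0.30 (SE 0.06, 95% interval 0.16 to 0.44, adjusted p = 0.0159). Without 2D, the clone high in neutrophil genes, the log2 fold change of Aen was 0.35 (adjusted p = 0.00188).

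Rrm2b encodes a small subunit of ribonucleotide reductase that supplies nucleotides for DNA repair and for mitochondrial DNA outside S phase. Rrm2b (ENSMUSG00000022292, chromosome 15) ranged from 10.9 to 18.02 CPM in wildtype, with a median of 13.1 CPM. In knockout it ranged from 15.1 to 20.7 CPM, with a median of 19.7 CPM. The knockout clones 3G, 3H, 3I, 4J and 4L lay close together, and 4K fell below the wildtype clone 2D. The means were 13.6 ± 2.46 and 19.1 ± 2.00 CPM (SD, n = 6 each), with a log2 fold change of 0.49 (SE 0.12, 95% interval 0.24 to 0.75, adjusted p = 0.0266). Leaving out single clones ended the call in 7 of 12 cases, namely without 1B, 2F, 3G, 3H, 3I, 4J or 4L (adjusted p up to 0.0629). Without 2D it held, at a log2 fold change of 0.59 (adjusted p = 0.00404). It was also lost without a filter on low counts (adjusted p = 0.0503).

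The reads of some members may include those of a gene on the other strand, since counting ignored strand. Exons of Plk3 overlap Tctex1d4 in GENCODE M21, a gene that the count files do list. Reads over the shared exons may thus have been counted for neither gene. Cdkn1a, Trp53cor1 and Rrm2b overlap transcripts on the other strand that the count files do not list. For Cdkn1a, Trp53cor1 and Rrm2b the strand of origin cannot be told apart.

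The 9 targets rose by unequal amounts. Ranked by log2 fold change among the 472 genes called higher, Zmat3 was at place 23 and Trp53cor1 at 26. Phlda3 followed at place 70, Cdkn1a at 102, Plk3 at 138, Rrm2b at 147 and Ccng1 at 153. Aen at place 249 and Mdm2 at 408 were among the smaller rises. The 95% intervals of Zmat3 and Trp53cor1 overlapped each other and lay above those of the other 7 targets. The interval of Mdm2 overlapped those of Aen and Plk3 and lay below those of the other 6.

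Clones of different title numbers were compared in a model with 4 groups of 3 clones. Ccng1, Trp53cor1 and Zmat3 were called higher in all 4 knockout-minus-wildtype pairs, 3 of the 10 genes, against 0.144% of all tested genes. Those 4 pairs share libraries and are not independent. In Zmat3 the log2 fold changes were 1.66 for 3 against 1, 1.97 for 4 against 1, 2.01 for 3 against 2 and 2.32 for 4 against 2. In Trp53cor1 they were 1.87, 1.78, 2.04 and 1.94 in the same order. Cdkn1a was called against title number 1, at 0.84 and 0.85 (adjusted p = 0.0139 and 0.0248), and not against title number 2, at 0.62 and 0.62 (adjusted p = 0.0558 and 0.0785). At an unadjusted p under 0.05, 8 or 9 of the 10 genes passed in each of the 4 pairs, and between 12.4% and 16.5% of all tested genes did.

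Within a genotype the title numbers showed no called difference in any of the 10 genes. Over all tested genes, 0% were called between 2 and 1 in wildtype and 0% between 4 and 3 in knockout. At an unadjusted p under 0.05, none of the 10 genes passed in either comparison, while 3.52% of all tested genes passed in wildtype and 2.06% in knockout. The smallest unadjusted p of the 10 genes was 0.0995 in wildtype and 0.323 in knockout, in edgeR's test. The largest absolute log2 fold change of the 10 genes was 0.35 within wildtype and 0.31 within knockout.

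**Figure D2:**
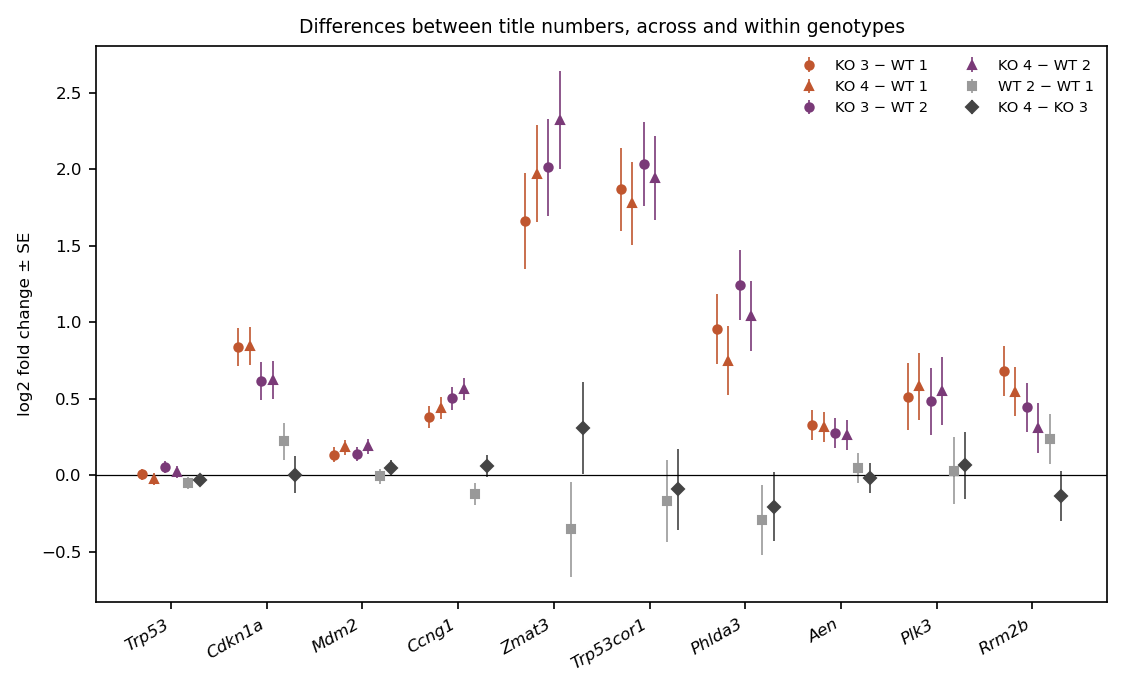
Log2 fold change ± SE (vertical axis) of each of the 10 genes (horizontal axis) for the 4 knockout-minus-wildtype pairs of title numbers (orange and purple) and for the comparisons within wildtype (light grey squares) and within knockout (dark diamonds). In Zmat3 and Trp53cor1 the 4 pairs across genotypes lay between 1.66 and 2.32, and the values within a genotype stayed within 0.35 of 0.

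Clones of the same genotype were then compared gene by gene, as a description over 12 clones that share library depth and culture. Deviations of log2 CPM from the genotype mean were correlated between the 9 targets. Of 36 pairs of targets 22 had a positive Pearson r, and the median r was 0.11. The highest was 0.83 between Aen and Rrm2b, which share 2D as a high and 4K as a low clone. Cdkn1a and Mdm2 had an r of 0.61 and Ccng1 and Phlda3 one of 0.60, while Phlda3 and Aen had the lowest, -0.57. Between Trp53 and its targets r ran from -0.41 for Rrm2b to 0.37 for Phlda3. Averaged over the 9 targets, 4K lay lowest for its genotype, at -0.19 on the log2 scale, and 4J highest, at 0.11.

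The tested genes most like the targets in this respect were chosen by the correlation of their deviations with the mean deviation of the 9 targets, over 12 clones and 9496 candidates (mean log2 CPM 2 or more). They were Thap7 (r 0.91), Sgsm2 (r 0.88), Slc19a2 (r 0.86), Nbdy (r 0.83) and Tmppe (r 0.83). None of these 5 was called between genotypes, with log2 fold changes of 0.11, -0.08, 0.26, -0.14 and 0.04 in that order.

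Close relatives of p53 and of the targets were compared next. Among the 17 on this list, Plk1 is also on the list of DREAM genes below, and Plk2, too low to test, is itself a known p53 target. In edgeR's test 11 of the 17 could be tested and none was called. An unadjusted p under 0.05 was found in 4 of these 11 genes, against 23.7% of all tested genes, and their median log2 fold change was -0.06. DESeq2 called Plk1 and Zmat2 lower and Phlda2 higher. Phlda2 reached at most 16 reads in a clone and was not among the genes edgeR tested. Rrm2, the subunit of ribonucleotide reductase used in S phase, went from 327 ± 25.4 to 287 ± 35.5 CPM (SD, n = 6 each), at a log2 fold change of -0.19 (adjusted p = 0.175). The 95% interval of Rrm2 lay below that of Rrm2b. Plk1, the kinase of mitosis, was at -0.27 (adjusted p = 0.0779). Cdkn1b, which encodes the p27 inhibitor, was at -0.06 (adjusted p = 0.679), and Mdm4, the partner of Mdm2, at 0.13 (adjusted p = 0.224). Ccng2 was at -0.16 (adjusted p = 0.636), Phlda1 at 0.38 (adjusted p = 0.622), Zmat1 at 0.29 (adjusted p = 0.174), Zmat2 at -0.11 (adjusted p = 0.0872) and Zmat5 at -0.11 (adjusted p = 0.433). Isg20 and Isg20l2, relatives of Aen, were at 0.18 and 0.07 (adjusted p = 0.636 and 0.490). The p53 relatives Trp63 and Trp73 were too low to test, with at most 0 and 2 reads in a clone.

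**Figure D3:**
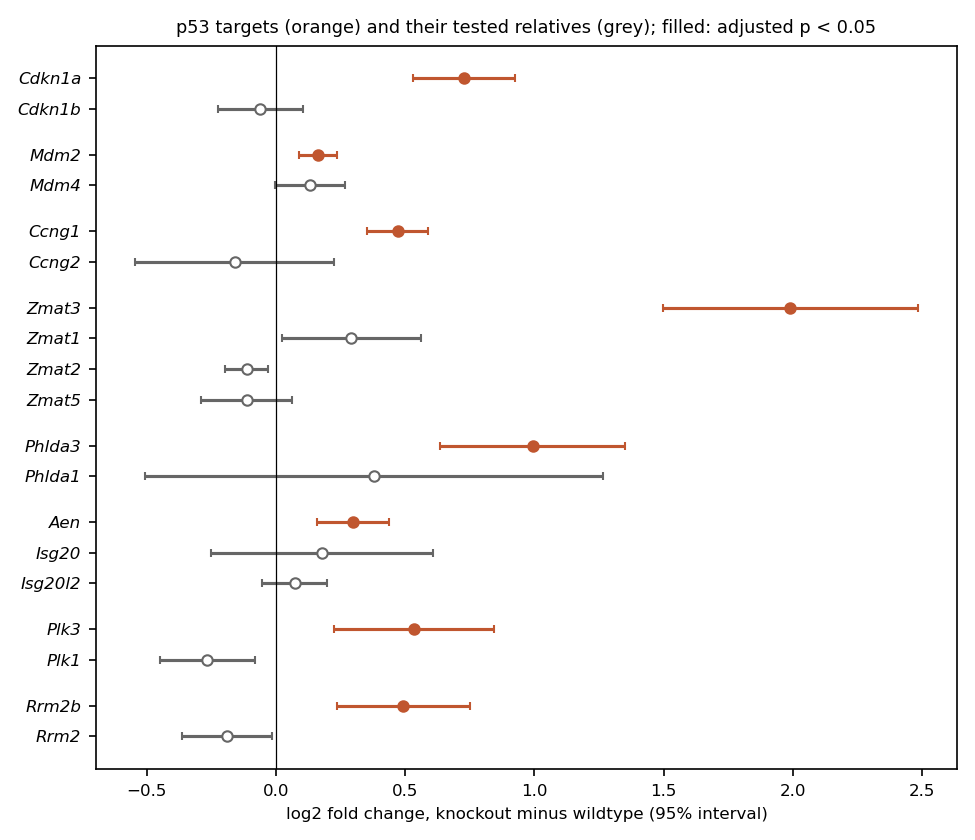
Log2 fold change with 95% interval, knockout minus wildtype (horizontal axis), for 8 p53 targets (orange, filled where the adjusted p was under 0.05) and their tested relatives (grey), grouped by family. All 8 targets lay to the right of 0, and no relative was called by edgeR.

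Of 22 genes that act on p53, all tested, 1 (4.55%) was higher and none lower, a share near the 3.99% of all tested genes. Their median log2 fold change was 0.02. Without 1C 3 were higher (Atr, Cdkn2a and Prkdc), and by voom with title number as a block 4 were. The gene that rose was Atr, the kinase that signals stalled replication, from 96.4 ± 3.85 to 117 ± 5.35 CPM (SD, n = 6 each, log2 fold change 0.28, SE 0.04, adjusted p = 0.00148). With counts summed by title number Atr no longer passed (adjusted p = 0.0535). Prkdc, a kinase of double-strand break repair, was at 73.9 ± 8.04 and 84.6 ± 4.13 CPM (log2 fold change 0.20, adjusted p = 0.101). Cdkn2a, named after its values were seen, encodes the Mdm2 inhibitor Arf among its products. Its level was 1.88 ± 3.84 CPM in wildtype and 6.72 ± 4.98 CPM in knockout, and its log2 fold change was 1.85 (SE 1.17, adjusted p = 0.376). The wildtype clone 1C stood at 9.67 CPM and the other 5 between 0.0415 and 1.07 CPM, while knockout clones ran from 0.515 to 14.0 CPM. Without 1C the log2 fold change was 4.34 and Cdkn2a was called (adjusted p = 0.0269). With 1C kept, it was called by voom with the block (log2 fold change 3.56, adjusted p = 0.0290) and not by voom without it (adjusted p = 0.113). The block fit used a negative correlation (-0.169), which lowers the SE of a genotype difference. The call thus depended on 1 library and on the choice of test.

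Further target genes were read from 5 lists that leave out the 9 above. Of 63 symbols 61 were matched and 48 tested. In these 48 genes, 7 (14.6%) were higher and none lower, against 3.99% and 3.94% of all tested genes. Among the 7 is Inka2, which passed the filter on low counts through its knockout clones. Of the 48, 26 had a positive and 22 a negative log2 fold change, and the median was 0.03. With the 22 genes that act on p53, 8 of 70 tested genes (11.4%) were higher and none was lower in edgeR's test. An unadjusted p under 0.05 was found in 19 of the 70 (27.1%), against 23.7% of all tested genes. With counts summed by title number, Bbc3 and Sesn2 were the 2 of the 8 that kept their calls, while Atr, Bid, Bax, Ddit4, Sfn and Inka2 lost theirs. By DESeq2, 10 were higher and 3 lower, Aldh4a1 and Pcna among the latter.

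Among targets that lead to cell death, 3 of 13 tested (23.1%) were higher, against 3.99% of all tested genes, and none was lower. Bbc3, which encodes the cell death protein Puma, rose from 14.9 ± 1.81 to 27.0 ± 3.03 CPM (SD, n = 6 each, log2 fold change 0.86, SE 0.10, adjusted p = 0.000481), with no overlap between genotypes. Bid, which carries death receptor signals to mitochondria, rose from 115 ± 8.32 to 134 ± 3.20 CPM (log2 fold change 0.21, adjusted p = 0.0147). Bax, which opens the outer mitochondrial membrane, rose from 66.4 ± 6.66 to 80.5 ± 7.43 CPM (log2 fold change 0.28, adjusted p = 0.0441). Bax kept its call without 2D and without 4K and lost it in the other 10 of 12 cases of a clone left out.

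Among targets in metabolism and oxidative stress, 2 of 12 tested (16.7%) were higher, against 3.99% of all tested genes, and none was lower. Sesn2, a stress protein that restrains growth signalling through mTORC1 and that other stress factors also induce, rose from 48.0 ± 13.6 to 136 ± 11.7 CPM (SD, n = 6 each, log2 fold change 1.51, SE 0.17, adjusted p = 0.000503). Ddit4, a further inhibitor of mTORC1, rose from 18.3 ± 2.89 to 26.8 ± 3.95 CPM (log2 fold change 0.55, adjusted p = 0.0191). The median of the 12 genes was -0.07. Aldh4a1, named after its values were seen, was at -0.41 (edgeR's adjusted p = 0.0590). It was called lower by DESeq2, with counts summed by title number, by voom with the block and without 4L.

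Among arrest targets other than Cdkn1a and Plk3, 1 of 8 tested (12.5%) was higher, against 3.99% of all tested genes. None was lower, and the median was -0.08. Sfn, the 14-3-3 sigma protein, rose from 6.33 ± 0.433 to 7.99 ± 0.515 CPM (SD, n = 6 each, log2 fold change 0.34, adjusted p = 0.0239). Sfn was no longer called without 1A, 1C, 3G, 4J or 4L. Gadd45a, a stress gene of growth arrest, was at 15.7 ± 5.19 and 24.7 ± 5.26 CPM (log2 fold change 0.65 and adjusted p = 0.0920). Gadd45a was called higher by DESeq2 (adjusted p = 0.0336), with counts summed by title number (0.0384), by voom with the block (0.0136) and without 2D (0.0443). Of the 8 arrest targets, 3 had a positive and 5 a negative log2 fold change. E2f7 and Ckap2, named after their values were seen, were at -0.34 and -0.15 (edgeR's adjusted p = 0.161 and 0.0965). In E2f7 every knockout clone lay below every wildtype clone. Voom with the block called both E2f7 and Ckap2 lower. None of the 8 repair targets passed edgeR's test. Their median was -0.08, and 3 of them (37.5%) had an unadjusted p below 0.05, against 23.7% of all tested genes. Pcna, the replication clamp, was at -0.09 (adjusted p = 0.0802). DESeq2 called Pcna lower and Polk, a polymerase that bypasses damaged bases, higher. Of 7 further targets tested, 1 (14.3%) was higher, against 3.99% of all tested genes. This was Inka2, from 0.466 ± 0.178 to 1.47 ± 0.428 CPM (log2 fold change 1.64, SE 0.28, adjusted p = 0.00547). Its levels were low, from 0.260 to 0.691 CPM in wildtype clones and from 1.02 to 2.16 CPM in knockout clones. It was the knockout clones that carried Inka2 past the filter on low counts. With no such filter edgeR still called it (adjusted p = 0.0131). Dglucy was at 0.36 (adjusted p = 0.253).

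Genes that p53 is known to lower through p21 and the DREAM complex, a repressor of cell cycle genes, were read from a list of 24. In this list 7 (29.2%) were lower, against 3.94% of all tested genes, and none was higher. Of the 24 log2 fold changes 22 were negative, against 6106 of all 11819 tested genes, and the median was -0.13. The falls were small. E2f1, a transcription factor of S phase entry, fell from 60.5 ± 1.55 to 52.8 ± 2.09 CPM (SD, n = 6 each, log2 fold change -0.20, SE 0.03, adjusted p = 0.00589). Cdc20, an activator of the anaphase-promoting complex, fell from 177 ± 14.7 to 144 ± 11.8 CPM (log2 fold change -0.29, adjusted p = 0.0184). Ccnb2 and Ccnb1, cyclins of mitosis, fell by 0.26 and 0.20 on the log2 scale (adjusted p = 0.0277 and 0.0330), and Bub1b, of the spindle checkpoint, by 0.15 (adjusted p = 0.0372). Aurkb and Bub1 made up the 7, at -0.21 and -0.23.

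The count of DREAM genes depended on single clones. It was between 2 and 4 without 1A, 1B, 2F or any 1 of the 6 knockout clones. E2f1 and Cdc20 were called in all 12 fits that left out a clone. With counts summed by title number, none of the 7 kept its call, and E2f1 and Cdc20 had an adjusted p of 0.0824 and 0.0644. Top2a was called higher by DESeq2, at 0.08 in edgeR (adjusted p = 0.113), and 13 of the 24 genes (54.2%) had an unadjusted p under 0.05, against 23.7% of all tested genes.

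**Figure D4:**
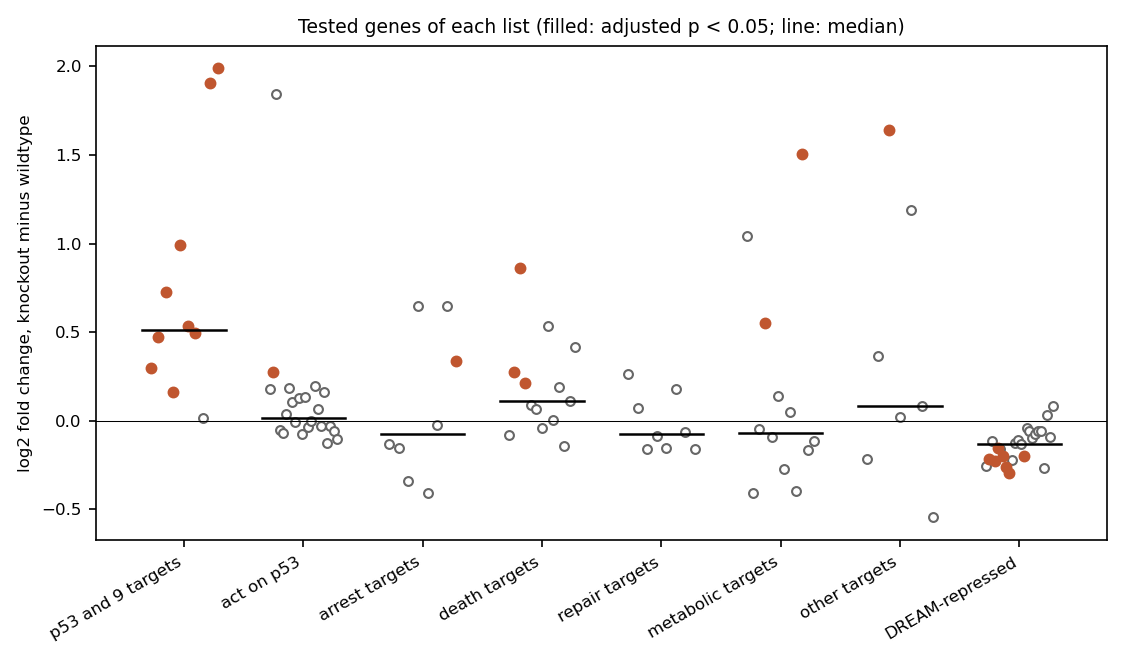
Log2 fold change, knockout minus wildtype (vertical axis), of every tested gene of each list (points, filled where the adjusted p was under 0.05) with the list's median (line). The median was 0.51 for p53 and the 9 targets, between -0.08 and 0.11 for the genes acting on p53 and the 5 lists of further targets, and -0.13 for the DREAM genes, where the 7 filled points lie below 0.

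The neighbours of the members were also read from the fit. Of 90 tested genes, up to 5 on each side of a member, 7 were called higher (7.78%) and 6 lower (6.67%), against 3.99% and 3.94% of all tested genes. Their median log2 fold change was -0.01.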

How the data were processed

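The authors deposited raw counts of reads per Ensembl gene, 1 file for each of 12 clones. STAR, HTSeq, edgeR and the build mm9 are named, without versions, per the submitters' processing notes. Per the labels' file names, counting ignored strand. The annotation release is not given in the sources used here. Between 42.8% and 44.9% of records were not uniquely aligned, so near-identical genes lose reads. The 5 HTSeq totals of each file were left out. Of 37583 identifiers 32860 were named from a gene name table and GENCODE M21, a later build that gave names, chromosomes, strands and neighbours. Promoter letters and their coordinates are from RefSeq (GRCm38.p6), and none were read from the files' build.

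Counts of all 12 clones were tested with edgeR 4.0.16 in R 4.3.3 (quasi-likelihood F-test, TMM, filterByExpr by genotype, Benjamini-Hochberg over 11819 genes, call at an adjusted p under 0.05). The SE is the absolute log2 fold change over the square root of F. Log2 CPM used a prior count of 2. Library pairs had log-count correlations of 0.899 to 0.970 and at most 1.6% equal counts. The script was tested on simulated data. Alternatives were RLE size factors, library size alone, DESeq2 1.42.0, voom of limma 3.58.1 with and without title number as a correlated block, no filter, counts summed by title number, and each clone left out. The labels do not say that clones came from separate animals, so p-values measure the spread between these clones.

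The members and gene lists were chosen with earlier results of these data known. Named genes were Taz, the members, up to 5 called genes in each direction of each list by adjusted p (or the first 2 where fewer were called), the tested relatives and the 5 genes most like the targets. One gene that this rule names is not reported here.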

Additional observations from a re-analysis of the deposited data

Results flagged for a closer look

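In 6 of 78 groups of 6 clones, 1 clone stood apart from the rest by Dixon's test, and chance gives about 1 in 20. Zmat3 in wildtype was highest in 1B, at 3.09 CPM, and Rrm2b in knockout was lowest in 4K, at 15.1 CPM. Sfn in wildtype was highest in 1B, at 7.13 CPM. Atr in knockout stood apart in 3I, at 127 CPM, Pcna in knockout in 4J, at 231 CPM, and Zmat5 in knockout in 4J, at 13.2 CPM.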

How the results depend on the processing

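Alternatives changed 1 choice each, except that DESeq2 also brings its own size factors and filter, and voom with the block changes both test and block. Over 190 refits of the log2 fold changes of the 10 genes, no call changed direction, 165 stayed on the same side of the threshold and 25 no longer passed it. With counts summed by title number, 4 members (Ccng1, Cdkn1a, Trp53cor1 and Zmat3) and 3 pathway genes (Bbc3, Gadd45a and Sesn2) were higher. In the same fit 1 pathway gene (Aldh4a1) and 0 DREAM genes were lower. This fit has 4 samples in place of 12. Without the low-count filter 6 members were higher, 2 DREAM genes were lower and 1 member was called in all 4 pairs. By DESeq2, 3 pathway genes were lower and 1 DREAM gene (Top2a) was higher. By voom with title number as a correlated block, 14 pathway genes were higher and 5 lower, and 1 DREAM gene was higher. The block correlation was estimated at -0.169. With so few title numbers in a genotype, that estimate cannot show whether clones of a number are related. A negative value lowers the SE of the genotype difference, so genes pass more easily in this fit. Voom without the block called 497 genes higher and 428 lower. The cause of the moves under the other alternatives was not tested. Leaving out a clone gave 7 to 9 members higher, 6 to 10 pathway genes higher, 0 to 1 lower (1 without 1A, 2D or 4L) and 2 to 7 DREAM genes lower. Over all genes, 472 were higher and 466 lower in the main test, against 271 and 280 without the filter, 801 and 830 by DESeq2, 158 and 116 with summed counts, and 1171 and 1125 by voom with the block. No paired analysis was possible because the genotypes share no title number. Depth limits Zmat3, Trp53cor1 and Plk3 most, whose wildtype clones held as few as 42, 63 and 71 reads.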
